A study of Mus musculus with 6 samples.

Results

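The genes described are 10 genes of lipid transport: the apolipoprotein genes Apoe and Apod, the lipid exporter genes Abca1 and Abcg1, the lipase gene Lpl, the lipoprotein receptor genes Lrp1, Lrp8 and Vldlr, and the scavenger receptor genes Cd36 and Scarb1. They were chosen by name from the 49315 genes counted. RNA of mouse cerebral cortex was sequenced in 6 libraries, 3 per group, from mice of wild type genotype. The shScr group was given AAV-PHP.eB-Gfap-GFP-shScr, a brain-penetrating viral vector with a scrambled short hairpin RNA, and the shFabp7 group AAV-PHP.eB-Gfap-GFP-shFABP7, whose hairpin targets the brain fatty acid-binding protein gene Fabp7. In both vectors a promoter of the astrocyte gene Gfap drives expression, so the hairpin acts in cells that use that promoter while the RNA is that of the whole tissue. All mice received the vector at 21 days of age, then weekly lipopolysaccharide (LPS, a bacterial product that causes inflammation) at 1 mg/kg for 3 weeks from 4 months of age, and tissue was collected 24 h after the last dose. The contrast is therefore between hairpins under LPS, and no library shows the untreated level. Strain and sex are not in the labels, and whether the libraries come from different animals is not stated there either. The p-values thus cover the spread among these 6 libraries, which may in part be technical. By their reads each group holds male and female libraries (below), so not all libraries of a group come from the same animal.

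Lipids move between brain cells on particles resembling high-density lipoproteins. Astrocytes, and microglia when activated, make apolipoprotein E and load it with cholesterol and phospholipid through the ABC transporters ABCA1 and ABCG1, both targets of the liver X receptors (LXR). Neurons and glia take the particles up through lipoprotein receptors, among them LRP1. VLDLR and LRP8 (also called ApoER2) also receive the signalling protein reelin. Lipoprotein lipase frees fatty acids from triglyceride, and CD36 and SR-B1 (encoded by Scarb1) take up fatty acids, oxidised lipids and cholesterol esters.

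The 250 bases upstream of a RefSeq start (build GRCm38.p6) are shown for 3 of the genes: Abca1, whose promoter is known for an LXR element, and Apod and Vldlr, the genes with the smallest p-values below. Capitals mark matches to any of 5 motifs searched on both strands. These were a relaxed form of the LXR direct repeat DR4 (2 copies of GGTNA with 5 unspecified bases between them, written with the known Abca1 element in mind), a sterol response element (TCACNCCAC), the GC box (GGGCGG), the TATA box (TATAAA) and the E-box (CACGTG).
Abca1, chr4:53159896-53160145, minus strand: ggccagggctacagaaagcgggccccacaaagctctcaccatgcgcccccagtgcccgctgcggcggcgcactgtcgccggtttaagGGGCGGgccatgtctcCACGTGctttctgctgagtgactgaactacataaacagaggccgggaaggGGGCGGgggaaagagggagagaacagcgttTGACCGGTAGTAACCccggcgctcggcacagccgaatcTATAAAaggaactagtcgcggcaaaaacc
Apod, chr16:31314809-31315058, minus strand: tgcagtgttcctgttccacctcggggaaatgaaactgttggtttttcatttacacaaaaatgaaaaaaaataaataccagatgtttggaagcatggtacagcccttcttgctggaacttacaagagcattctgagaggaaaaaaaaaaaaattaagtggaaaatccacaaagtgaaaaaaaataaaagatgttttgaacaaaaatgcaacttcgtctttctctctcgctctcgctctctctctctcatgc
Vldlr, chr19:27216234-27216483, plus strand: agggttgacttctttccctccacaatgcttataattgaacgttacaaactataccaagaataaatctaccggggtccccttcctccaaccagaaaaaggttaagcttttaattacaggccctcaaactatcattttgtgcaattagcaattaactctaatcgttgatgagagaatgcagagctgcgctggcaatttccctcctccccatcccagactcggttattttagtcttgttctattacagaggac
The Abca1 window held a DR4 match from base -67 to base -53 relative to the start, a TATA box match from -29 to -24, GC box matches starting at -163 and -97, and an E-box match starting at -147. The DR4 form occurred in 0.621% of the 32851 RefSeq windows of this length, TATAAA in 12.4%, GGGCGG in 32.7%, CACGTG in 6.02% and TCACNCCAC in 1.05%. The Apod and Vldlr windows shown held 0 matches and had 36.4% and 41.6% G or C, against 61.6% for Abca1. A further Vldlr window, from 27216770 to 27217019, held a GC box match. Windows were found for 7 of the 10 genes, and none of the other windows of these 7 held a DR4 match. These are letter matches in a fixed window and show no binding.

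Libraries held 16914012 to 18991235 counted reads, and 17185 genes had enough counts to test. Fabp7, the target of the hairpin, was below every shScr library in every shFabp7 library: 26.3, 15.2 and 15.8 CPM (reads per library scaled by TMM to the same depth) in shScr against 5.56, 2.49 and 3.52 CPM in shFabp7. Values of 3 libraries are given in the order of the replicate numbers throughout. Its log2 fold change of -2.31 (SE 0.35) had an adjusted p of 0.0704 in edgeR and 5.23e-13 in DESeq2. Cortical excitatory neuron markers (14 of 14 tested) summed to 4620 to 6620 CPM in shScr and 7382 to 8566 CPM in shFabp7. Marker genes of other regions were unevenly spread: thalamic and hypothalamic markers summed to 221, 92.1 and 80.0 CPM in shScr and 59.1 to 67.6 CPM in shFabp7, while striatal markers were highest in shScr library 1 (1831 CPM) and shFabp7 library 3 (2119 CPM). A regional score was formed as the mean centred log2 level of hippocampal, striatal, thalamic, hypothalamic, choroid plexus and ependymal markers less that of the excitatory markers. It was 1.58, -0.27 and 0.50 in shScr and -0.49, -1.03 and -0.28 in shFabp7, so shScr library 1 stands apart. Every shScr score lay above every shFabp7 score, though by little (-0.27 against -0.28). In these 6 libraries the score and the hairpin therefore cannot be told apart, also in the values fitted with the score below. Reads of Xist and Y-linked genes marked 2 shScr libraries and 1 shFabp7 library as male. Among those read as female, shFabp7 library 2 held 13.6 CPM of Y-linked reads, against 1.47 CPM in shScr library 3 and 1.92 CPM in shFabp7 library 3. Its sex reading is therefore less clear, and the source of these reads was not tested. Astrocyte markers (15 of 15 tested) summed to 6575 to 6875 CPM in shScr and 6521 to 7214 CPM in shFabp7, ranges that overlap, but the single markers lay on both sides: 4 had groups that did not overlap and were lower (Gfap, Aqp4, Slc1a3 and Sox9), and 3 were higher (Aldh1l1, Gjb6 and Fgfr3). Over all genes tested, 11.5% were lower and 11.4% higher without overlap. Gfap, whose promoter drives the vectors, had 249, 240.2 and 312 CPM in shScr and 134, 161 and 168 CPM in shFabp7. Its log2 fold change was -0.79 (adjusted p = 0.0597 by edgeR). None of the 14 marker lists had a gene at 0 in all 6 libraries.

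None of the 10 lipid transport genes passed the threshold between the hairpin groups. Fabp7, with a shFabp7 mean at 20.2% of shScr, also missed it in edgeR (adjusted p = 0.0704). Missing the threshold therefore does not show an unchanged level. The apolipoprotein gene Apod and the reelin receptor gene Vldlr had the clearest differences, with mean shFabp7 levels at 76.2% and 81.9% of shScr. Apoe and Abca1 averaged 88.6% and 85.9% of shScr with overlapping groups. Lrp1 and Lrp8 averaged 104.7% and 103.4%, with intervals that exclude changes of more than 1.16-fold upward. By edgeR's quasi-likelihood test with Benjamini-Hochberg adjustment over all genes, 0 of the 10 had an adjusted p under 0.05, where 0.116% of all genes tested did (0.0582% lower and 0.0582% higher), and their adjusted p-values ran from 0.207 to 0.927. DESeq2 also called 0 of the 10, against 4.49% of the genes it gave an adjusted p. At an unadjusted p under 0.05 there were 2 of 10 (Apod and Vldlr, both lower) against 16.8% of all genes (8.32% lower and 8.44% higher). In DESeq2 2 of 10 had one, against 14.3%. The groups did not overlap for 1 of 10 (Vldlr, lower) against 22.9% of all genes (11.5% lower and 11.4% higher). These shares are near the background or below it. Values below 0 were held by 8 of the 10, against 51.5% of all genes, and the median log2 fold change was -0.17, against -0.0065 over all genes tested. Of these 8, Abcg1, Lpl and Cd36 kept their sign in 12, 13 and 14 of 17 alternatives. With the regional score in the model all of these lay above 0, and Apoe was at -9.1e-05. The 10 genes were chosen with earlier results of these data known, and no test was made over them as a set.

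**Figure D1:**
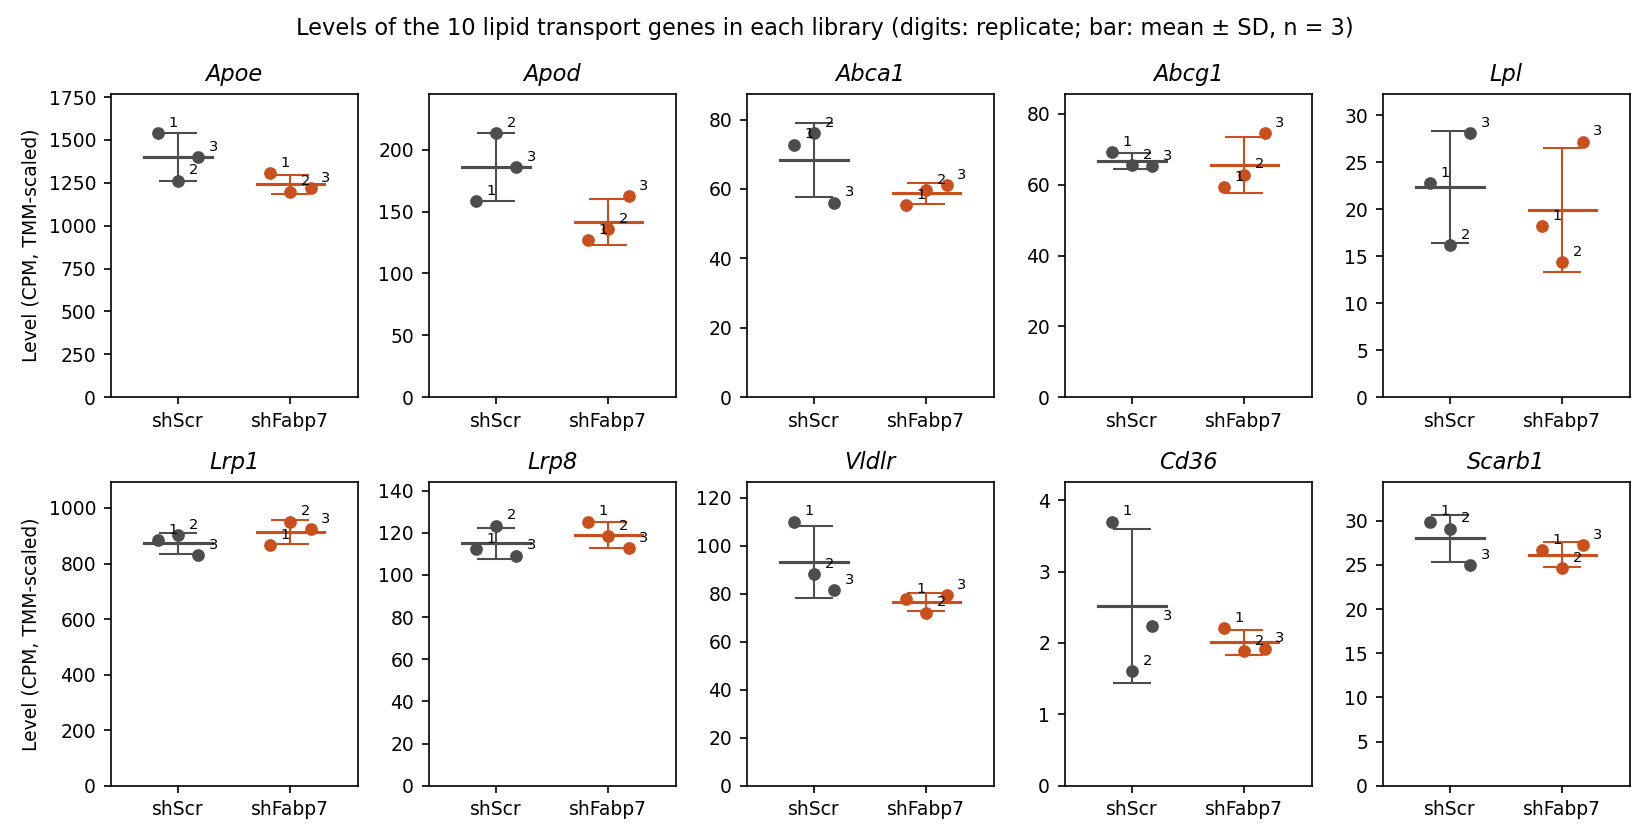
Level of each of the 10 genes in CPM (y axis, from 0) in the 3 shScr and 3 shFabp7 libraries (points, digits give the replicate number), with mean and SD as bars (n = 3). Vldlr is the gene whose groups do not overlap (81.6 to 110 CPM against 72.2 to 79.3 CPM).

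Among the ligands, Apoe (ENSMUSG00000002985, chromosome 7 from 19696109 to 19699188, minus strand, GRCm38) was by far the most abundant of the 10 genes and took 0.117% to 0.159% of all counted reads. Its levels were 1539.5, 1263 and 1399 CPM in shScr and 1306, 1199 and 1219.6 CPM in shFabp7. Library 1 was the highest of both groups, and the Apoe level of shScr library 2 lay between shFabp7 libraries 1 and 3. The means were 1400.5 ± 138 and 1241 ± 56.6 CPM (SD, n = 3 per group), for a log2 fold change of -0.17 (SE 0.08, 95% interval -0.36 to 0.01, adjusted p = 0.313 by edgeR). The 2 libraries with the highest regional scores, shScr 1 and 3, also had the highest Apoe levels. Among the other 4 the order differed: shFabp7 library 1 had the highest Apoe level and a score of -0.49, below those of shScr library 2 (-0.27) and shFabp7 library 3 (-0.28). With the score in the model the Apoe value was -9.1e-05 (SE 0.08), and without shScr library 1 it was -0.10. Microglia markers (17 of 17 tested) summed to 700.1 to 738 CPM in shScr and 609.6 to 670.1 CPM in shFabp7, without overlap. Single markers were lower without overlap for 10 of the 17 and higher for 1, against 11.5% and 11.4% of all genes tested. By log2 fold change, 14 lay below 0 and 3 above 0. The part of microglia in the Apoe value was not tested. In bulk tissue, fewer cells of a type and less RNA per cell cannot be told apart.

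Apod (ENSMUSG00000022548, chromosome 16 from 31296192 to 31314808, minus strand) encodes a lipocalin that binds arachidonic acid and other small lipids and is made by oligodendrocytes, fibroblasts and stressed astrocytes. It stood at 158.5, 213 and 186 CPM in shScr and at 127, 136 and 163 CPM in shFabp7. The groups overlapped only through shFabp7 library 3, which lay above shScr library 1. The means of 186 ± 27.4 and 142 ± 18.6 CPM (SD, n = 3 each) gave the lowest p of the 10 genes, with a log2 fold change of -0.39 (SE 0.13, 95% interval -0.69 to -0.09, unadjusted p = 0.0178, adjusted p = 0.207 by edgeR). DESeq2 gave an adjusted p of 0.0548, and with no filter on low counts edgeR gave 8.17e-06. Unlike that of Apoe, the Apod value was larger with the regional score in the model (-0.57, SE 0.16, adjusted p = 0.472 by edgeR). It was also larger without shScr libraries 1 and 3 (-0.59, with the lone shScr library assumed to vary like the others). With each library left out in turn, the Apod value ranged from -0.50 (without shFabp7 library 3) to -0.28 (without shScr library 2). Without shFabp7 library 1 or 2 its unadjusted p by edgeR was no longer under 0.05. Fibroblast and meningeal markers (12 of 12 tested) summed to 845.4 to 1190.2 CPM in shScr and 689.5 to 788 CPM in shFabp7, without overlap. Ptgds alone made up 928, 642 and 730.6 CPM of these sums in shScr and 584.6, 531.4 and 519.2 CPM in shFabp7. Of the 12 single markers, 5 had groups that did not overlap, all lower, and 2 lay above 0. Over all genes tested, 11.5% were lower without overlap. Oligodendrocyte markers (12 of 12 tested) summed to 3943 to 5033 CPM in shScr and 4314 to 5142 CPM in shFabp7. The part of these cells in the Apod value was not tested. Among 12186 genes with a mean of at least 5 CPM, the 3 closest to Apod in centred log2 CPM over the 6 libraries were Stra6, Arpc1b and Tap1, with root mean square differences of 0.075, 0.076 and 0.080 against a spread of 0.254 for Apod itself. Stra6 encodes a retinol transporter, Arpc1b an actin-nucleating subunit and Tap1 a peptide transporter of antigen presentation.

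Apolipoproteins carried mainly in blood were almost not detected in cortex. Of 22 apolipoprotein genes listed, 6 were tested, with 2 above 0, 4 below 0, 0 called and a median log2 fold change of -0.11. The other 16 had at most 16 reads in any library, and Apoc2 and Apoa4 had 0 in all 6. Clu, which encodes clusterin (apolipoprotein J), was the next most abundant per length after Apoe (179.8 against 617.9 RPKM), at 634, 620.3 and 716 CPM in shScr and 575, 566 and 598 CPM in shFabp7. Its groups did not overlap, and its log2 fold change was -0.18 (SE 0.07, adjusted p = 0.257 by edgeR). Apol8 and Apoo had values of 0.28 (SE 0.18) and 0.06 (SE 0.08).

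**Figure D2:**
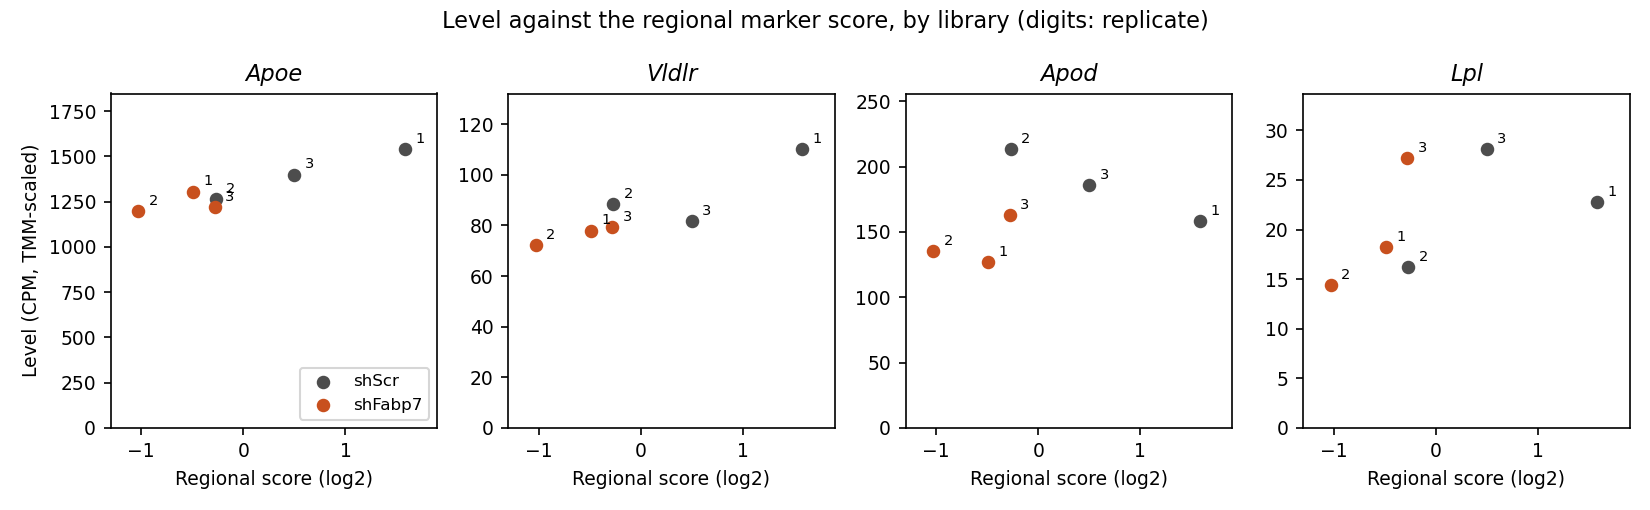
Level of Apoe, Vldlr, Apod and Lpl in CPM (y axis, from 0) against the regional score of each library (x axis, log2 units), with replicate numbers beside the points. shScr library 1, at a score of 1.58, holds the highest Apoe and Vldlr levels (1539.5 and 110 CPM) but the lowest Apod level of its group (158.5 CPM).

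The exporter gene Abca1 (ENSMUSG00000015243, chromosome 4 from 53030787 to 53159895, minus strand) encodes the transporter that loads lipid onto apolipoprotein E. Its levels were 72.8, 76.1 and 56.1 CPM in shScr and 55.4, 59.7 and 61.1 CPM in shFabp7. The shFabp7 libraries lay close together, and shScr library 3 lay among them. The log2 fold change was -0.22 (SE 0.11, 95% interval -0.47 to 0.03, adjusted p = 0.352 by edgeR), -0.34 without shScr library 3 and -0.13 without shScr library 2. Abcg1 (ENSMUSG00000024030, chromosome 17 from 31057698 to 31115777, plus strand), which moves cholesterol to particles that already hold lipid, stood at 69.3, 65.5 and 65.3 CPM in shScr and 59.4, 62.9 and 74.6 CPM in shFabp7. Its shFabp7 values spanned the whole shScr range. The log2 fold change of -0.02 (95% interval -0.21 to 0.17) turned sign in 5 of 17 alternatives. The per-length ratio of Abca1 to Abcg1 within each library was 0.412, 0.456 and 0.337 in shScr and 0.366, 0.372 and 0.321 in shFabp7, with overlapping groups. The difference in log2 ratio was -0.18 (exact two-sided permutation p = 0.3, adjusted p = 0.7 over 5 ratios chosen after the values were seen, where 0.1 is the smallest p that 3 against 3 allows).

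Of 13 lipid exporter genes tested, 5 had values above 0 and 8 below 0, with a median of -0.05 and 0 called. Abcg4, an exporter close to Abcg1 and found mainly in neurons and astrocytes, had 70.2, 62.7 and 64.7 CPM in shScr and 57.6, 60 and 53.1 CPM in shFabp7. Its groups did not overlap and its log2 fold change was -0.21 (SE 0.07, adjusted p = 0.195 by edgeR). Abca7, a phospholipid transporter of microglia and neurons, had 0.26 (SE 0.11, adjusted p = 0.260), Abcb4 -0.30 (SE 0.14), Abca2, a transporter of oligodendrocytes, 0.12 (SE 0.07), and Abca3 0.02 (SE 0.06). Of the 18 genes of the LXR list, which holds Apoe, Abca1, Abcg1 and Lpl, 7 were above 0 and 11 below 0, with a median of -0.03 and 0 called. Rxrb, a partner receptor of LXR, had a log2 fold change of 0.23 (SE 0.06, adjusted p = 0.119), and Srebf1, the lipogenic transcription factor gene that LXR activates, had -0.25 (SE 0.08, adjusted p = 0.177). Scd2 and Scd1, fatty acid desaturase genes, had -0.02 and 0.24. The targets on the list thus had values on both sides of 0.

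Lpl (ENSMUSG00000015568, chromosome 8 from 68880491 to 68907448, plus strand), the lipoprotein lipase gene, varied more within the groups than between them. Its levels were 22.8, 16.2 and 28.1 CPM in shScr and 18.2, 14.4 and 27.2 CPM in shFabp7. The highest library was 1.95 times the lowest, and each group held both high and low libraries. In both groups library 3 was the highest and library 2 the lowest. Each shFabp7 library lay below the shScr library of the same number. The log2 fold change was -0.16 (SE 0.30, 95% interval -0.91 to 0.58, adjusted p = 0.834 by edgeR), an interval that allows changes from 0.532-fold to 1.5-fold. Hippocampal markers (11 of 11 tested) summed to 584 and 580.8 CPM in shScr libraries 1 and 3 and to 355 to 398 CPM in the other 4. These 2 libraries were not alike in single markers: the mean centred log2 level was 0.23 in library 1 and 1.21 in library 3. Fibcd1, for example, had 13.4 CPM in library 1 and 49.5 CPM in library 3, while Wfs1 had 205.5 and 141.4 CPM. Striatal markers were high in shScr library 1 and shFabp7 library 3. Lpl is known to be strong in hippocampal neurons, and the part of tissue makeup in its spread was not tested. The Lpl value was 0.25 with the regional score in the model and -0.18 (SE 0.10, adjusted p = 0.389 by edgeR) with the replicate number as a block.

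Of 16 genes listed for lipolysis and lipid transfer, 12 were tested, with 7 above 0, 5 below 0, a median of 0.01 and 0 called by edgeR. Sel1l, an adaptor of endoplasmic reticulum quality control that lipoprotein lipase needs to mature, had 202, 206 and 210.1 CPM in shScr and 249, 239 and 241 CPM in shFabp7. Its groups did not overlap, with a log2 fold change of 0.24 (SE 0.06, adjusted p = 0.107 by edgeR and 0.0253 by DESeq2). Mttp, which encodes the microsomal triglyceride transfer protein, had -0.47 (SE 0.15, adjusted p = 0.176) without overlap, and Pltp, the phospholipid transfer protein gene, had 0.11 (SE 0.08).

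Among the receptors, Lrp1 (ENSMUSG00000040249, chromosome 10 from 127538161 to 127621148, minus strand), a large endocytic receptor for apolipoprotein E, had the smallest range. It stood at 883, 903 and 831 CPM in shScr and at 867, 951 and 923 CPM in shFabp7. The highest library was 1.14 times the lowest. The log2 fold change was 0.07 (SE 0.07, 95% interval -0.08 to 0.22, adjusted p = 0.655 by edgeR), so changes beyond 0.944-fold and 1.16-fold lie outside its interval. Lrp8 (ENSMUSG00000028613, chromosome 4 from 107802261 to 107876840, plus strand) had 112, 123 and 109 CPM in shScr and 125, 118 and 113 CPM in shFabp7. Its groups overlapped, and its log2 fold change was 0.05 (SE 0.07, 95% interval -0.10 to 0.20, adjusted p = 0.768 by edgeR).

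Vldlr (ENSMUSG00000024924, chromosome 19 from 27216484 to 27254231, plus strand), the other reelin receptor gene, stood at 110, 88.3 and 81.6 CPM in shScr and at 77.9, 72.2 and 79.3 CPM in shFabp7. Every shFabp7 library lay below every shScr library, by little for shScr library 3. The means were 93.3 ± 14.9 and 76.5 ± 3.72 CPM (SD, n = 3 per group), for a log2 fold change of -0.29 (SE 0.11, 95% interval -0.53 to -0.04, unadjusted p = 0.0258, adjusted p = 0.234 by edgeR). The adjusted p was 0.193 in DESeq2 and 0.00327 in edgeR with no filter on low counts. shScr library 1 set much of the size: the value was -0.15 without that library. With the regional score in the model, which cannot be told apart from the hairpin here, the value was -0.058 (SE 0.10). The per-length ratio of Vldlr to Lrp8 within a library, which no scaling of the libraries can alter, was 1.03, 0.748 and 0.780 in shScr and 0.649, 0.637 and 0.734 in shFabp7. The ratio was lower in every shFabp7 library than in any shScr library, a difference of -0.33 in log2 ratio, and the exact permutation test gave p = 0.1, the smallest it can give, and 0.5 when adjusted over the 5 ratios compared.

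**Figure D3:**
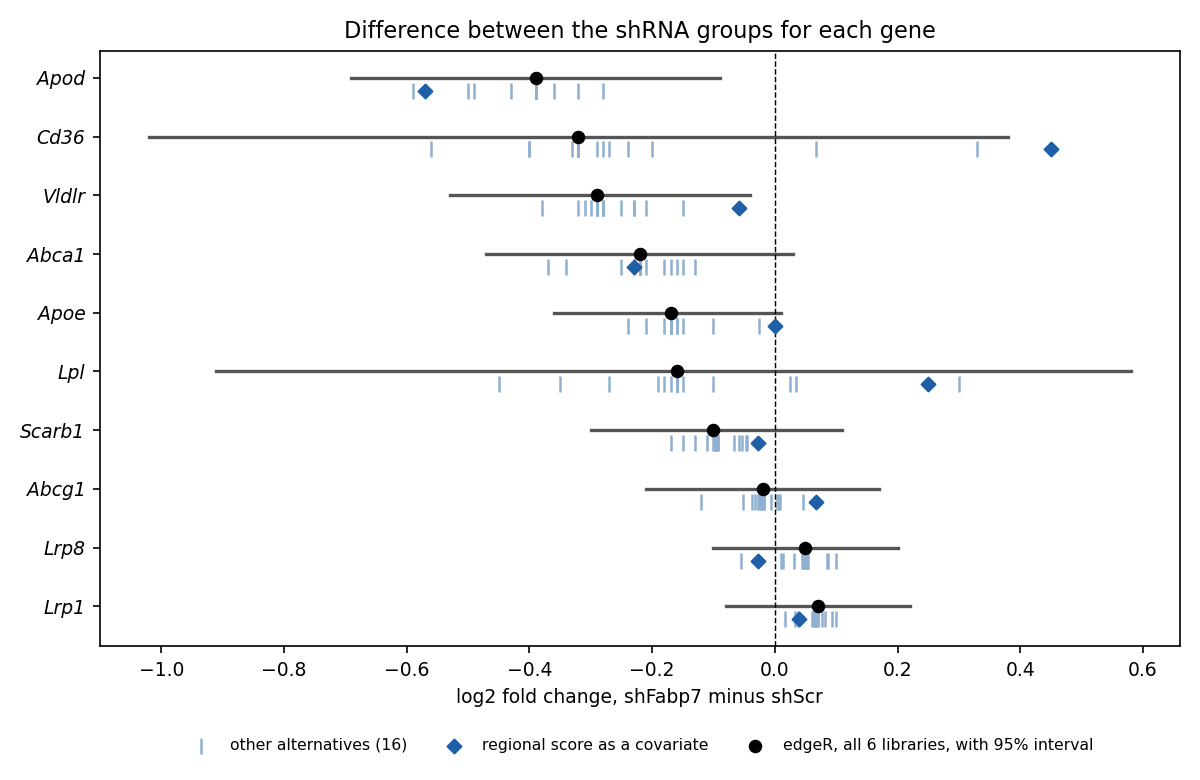
Log2 fold change of each gene (x axis, shFabp7 minus shScr) in edgeR with all 6 libraries (black points) and its 95% interval (lines), with the values under the alternatives below each line (ticks, and diamonds for the model with the regional score). The intervals of Apod and Vldlr lie below 0 and those of the other 8 genes hold 0, and the diamond of Vldlr lies near 0 (-0.058) while that of Apod does not (-0.57).

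Of 24 lipoprotein receptor and sorting receptor genes listed, 23 were tested, with 13 above 0, 10 below 0, a median of 0.05 and 0 called by edgeR. At an unadjusted p under 0.05 there were 5 higher and 4 lower, 39.1% of the list against 16.8% of all genes. Ldlrad4, which encodes a membrane protein that dampens TGF-beta signalling, had 23.3, 32.9 and 23.2 CPM against 37.7, 40.9 and 36.1 CPM, a value of 0.53 (SE 0.14, adjusted p = 0.131 in edgeR and 0.0159 in DESeq2). Sorl1, a sorting receptor of the VPS10 family named after its values were seen, had 0.415 (SE 0.124, adjusted p = 0.174 in edgeR and 0.0239 in DESeq2). Its relatives Sort1, Sorcs1, Sorcs3 and Sorcs2 had 0.22, 0.346, 0.197 and -0.134. The sum of the excitatory neuron markers, given above, was also higher in every shFabp7 library than in any shScr library. Of the 14 single markers, 6 had groups that did not overlap, all higher, and 2 lay below 0. Over all genes tested, 11.4% were higher without overlap. The part of these neurons in the receptor values was not tested. Lrp11 had 0.16 (SE 0.07). Lrp2, the megalin gene of choroid plexus and ependyma, had the lowest value of the list (-1.87, SE 0.55, adjusted p = 0.159 by edgeR) on levels of only 0.122 to 1.36 CPM. Choroid plexus and ependymal markers (7 of 12 tested) summed to 18.9 to 39.6 CPM in shScr and 13.1 to 20.9 CPM in shFabp7.

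In the reelin pathway, all 14 listed genes were tested, with 8 above 0, 6 below 0, a median of 0.02 and 0 called by edgeR. Rapgef1, an exchange factor that acts downstream of Crk adaptors, came closest to the threshold of all listed genes, at 147, 156 and 155 CPM in shScr and 185, 183 and 185 CPM in shFabp7. The groups did not overlap, with a log2 fold change of 0.27 (SE 0.06, adjusted p = 0.0779 in edgeR and 0.0104 in DESeq2). Src, a kinase of the pathway, had 0.18 (SE 0.06), Cdk5 0.16 (SE 0.07), and Nckap1 and Cdk5r1 0.11 and 0.04. Reln, the ligand gene, named after its values were seen, had -0.421 (SE 0.187, adjusted p = 0.326 by edgeR) with overlapping groups.

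Cd36 (ENSMUSG00000002944, chromosome 5 from 17781690 to 17888801, minus strand), the fatty acid scavenger receptor gene, was the rarest of the 10 genes, with 68, 30 and 41 reads in shScr and 37, 31 and 36 in shFabp7. These correspond to 3.70, 1.6 and 2.24 CPM and 2.21, 1.89 and 1.92 CPM. shScr library 1 was the highest and shScr library 2 the lowest, so the shFabp7 range lay within that of shScr. The log2 fold change was -0.32 (SE 0.31, 95% interval -1.02 to 0.38, adjusted p = 0.642 by edgeR) and 0.067 without shScr library 1. Changes from 0.492-fold to 1.30-fold lie within the interval. Scarb1 (ENSMUSG00000037936, chromosome 5 from 125277087 to 125341094, minus strand), the receptor gene for high-density lipoprotein, stood at 29.9, 29.1 and 25 CPM in shScr and 26.7, 24.6 and 27.2 CPM in shFabp7. The groups overlapped, with a log2 fold change of -0.10 (SE 0.09, 95% interval -0.30 to 0.11, adjusted p = 0.639 by edgeR).

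Of 17 scavenger receptor genes listed, 14 were tested, with 3 above 0, 11 below 0, a median of -0.12 and 0 called by either tool. Colec12, a scavenger receptor of vascular and perivascular cells, had 13.1, 11.5 and 12.2 CPM in shScr and 7.47, 8.64 and 9.77 CPM in shFabp7. Its groups did not overlap (log2 fold change -0.51, SE 0.13, adjusted p = 0.126 in edgeR and 0.0658 in DESeq2). Cd68, a lysosomal protein gene of microglia and macrophages, also had groups that did not overlap, with -0.41 (SE 0.14, adjusted p = 0.205), beside the microglia marker sums given above. Scarf2 had -0.47 (SE 0.23), Scarb2, a lysosomal receptor gene, -0.10 (SE 0.06) and Scara3 -0.15 (SE 0.09).

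**Figure D4:**
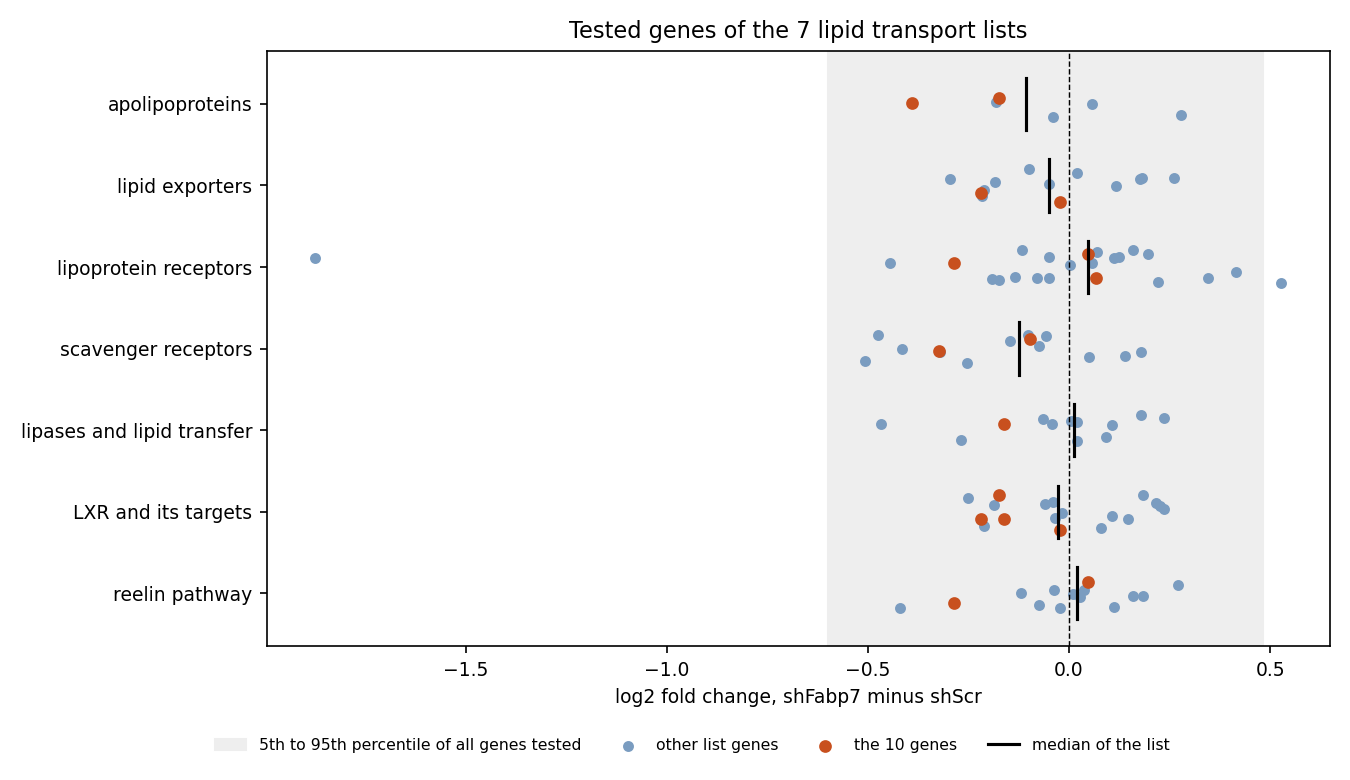
Log2 fold change (x axis, shFabp7 minus shScr) of every tested gene of the 7 lipid transport lists (rows), with the 10 genes in orange, other list genes in blue, list medians as black bars and the range from the 5th to the 95th percentile of all genes tested in grey (-0.60 to 0.48). The medians lie between -0.12 and 0.05, and Lrp2 (-1.87) lies far outside the grey range.

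Over the 7 lists together, which hold 116 different genes, 92 were tested, with 43 above 0 and 49 below 0, a median of -0.03 and 0 called by edgeR. With the 10 genes left out, 41 were above 0 and 41 below 0. DESeq2 called 5 genes, 5.56% of those to which it gave an adjusted p, of which 4 were higher (Ldlrad4, Sorl1, Sel1l and Rapgef1).

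The abundance of the 10 genes was compared as RPKM (the CPM level divided by the exon length in kilobases given in the files). Apoe had 617.9 RPKM on average and ranked 20 among the 17185 genes tested. Apod followed with 63.6 and Lrp1 with 50.4 RPKM, then Abcg1 with 16.3, Lrp8 with 11.1, Vldlr with 8.43 and Abca1 with 6.13 RPKM. Scarb1 (3.19 RPKM), Lpl (2.02 RPKM) and Cd36 (0.629 RPKM) lay below the median of all genes tested, 4.70 RPKM. Of the 9 neighbouring pairs in this order, 3 had ranges that overlap over the 6 libraries: Apod and Lrp1 (49.4 to 82.8 against 46.9 to 53.7 RPKM), Lrp8 and Vldlr (10.4 to 11.9 against 7.18 to 10.9 RPKM), and Vldlr and Abca1 (7.18 to 10.9 against 5.35 to 7.35 RPKM). Within a library, Vldlr exceeded Abca1 in all 6, and Apod exceeded Lrp1 and Lrp8 exceeded Vldlr in 5 of 6 each. The other 6 pairs were ordered alike in all 6 libraries, so the ranking of the genes differed little between the groups.

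**Figure D5:**
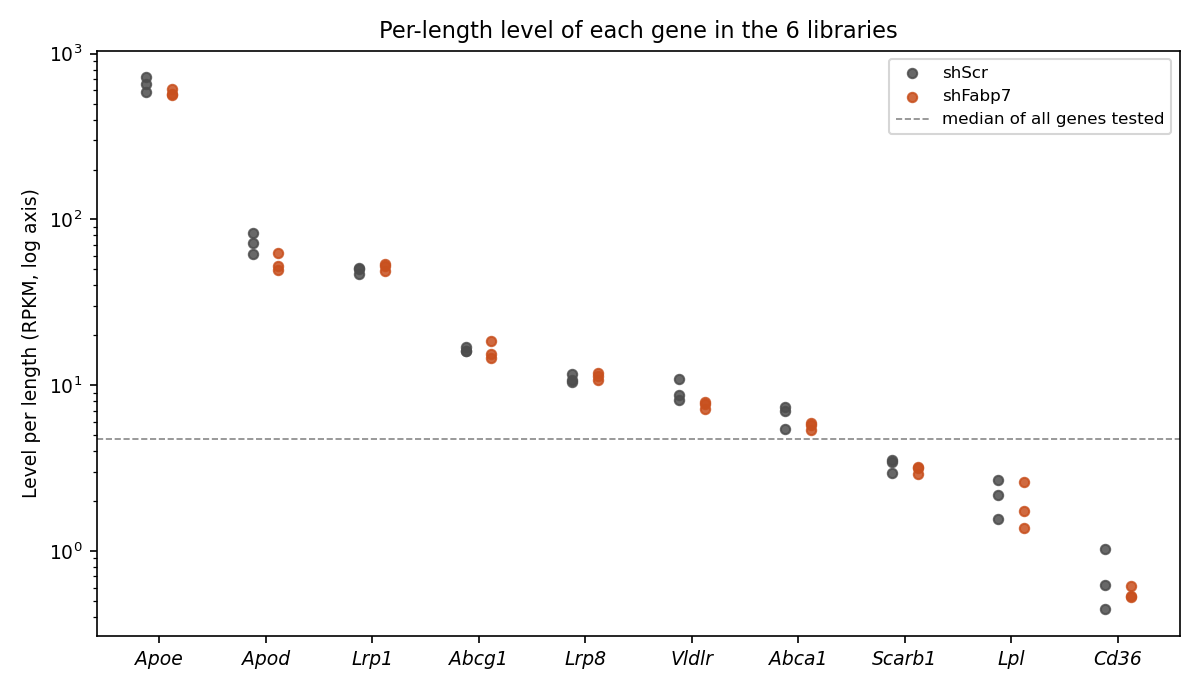
Per-length level of each gene in RPKM (y axis, log scale) in the 3 shScr (grey) and 3 shFabp7 (orange) libraries, ordered by mean, with the median of all genes tested (4.70 RPKM) as a dashed line. Apoe lies at 560.8 to 720.1 RPKM, far above the other 9 genes, and Cd36 lies lowest at 0.445 to 1.03 RPKM.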

How the data were processed

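The authors deposited unnormalized whole-number read counts per gene, 1 file a library; the columns are those featureCounts writes, per the file headers. Tools listed in the submitters' processing notes, without role or order, are STAR 2.5.2b, Trimmomatic 0.36, DESeq2 and Subread 1.5.2, beside build GRCm39. Gene positions in the files matched GENCODE M21 (GRCm38) for 91.4% of shared gene IDs, so GRCm38 was assumed for coordinates. The library kit keeps strand, per the labels' protocols; whether counting used strand is not given in the sources here. No exon of the 10 genes overlaps an exon of another gene in the files, on either strand. Symbols were found for 48970 of 49315 gene IDs, and the rest took 0.0991% to 0.114% of counts.

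Samples were grouped by their titles. Genes were filtered with filterByExpr, scaled by TMM and tested with edgeR 4.0.16 in R 4.3.3 (quasi-likelihood, robust, group alone, two-sided, threshold 0.05 on Benjamini-Hochberg adjusted p over all genes tested). The SE was derived from the fold change and its F statistic. Intervals are 95% and use the fit's degrees of freedom. Named genes were Fabp7, the 10 genes, and for each lipid list any gene past the threshold, the 3 with the smallest p and the 2 most abundant per length; others were named after their values were seen. A listed gene is not reported here. The 10 genes, the lists, the marker genes and the alternatives were chosen with earlier results of these data known. No library was a copy of another (pairwise chi-square over degrees of freedom 6.30 to 36.3). Alternatives were DESeq2 1.42.0, other scaling factors and filters, limma-voom (limma 3.58.1), the replicate number as a block, sex or the regional score as a covariate, a threshold of 0.1, and libraries left out. RefSeq windows for Abcg1, Lpl and Scarb1 were not used here.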

Additional observations from a re-analysis of the deposited data

How the results depend on the processing

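Over 17 alternatives, 154 of 170 values of the 10 genes kept their direction and their side of the threshold, and Apoe, Apod, Abca1, Lrp1, Vldlr and Scarb1 kept their sign in all 17. The threshold of 0.1 reads the main fit again, so it could turn no sign. The Apoe value with the regional score kept its sign only at -9.1e-05. With no filter on low counts, edgeR called 2 of the 10 genes (Apod at -0.39 and Vldlr at -0.29), 15 genes of the 7 lists and 1617 genes in all, against 0, 0 and 20; the cause was not tested. All genes called were 696 with DESeq2, 109 with limma-voom, 292 at a threshold of 0.1, 7 with sex and 10 with the regional score as a covariate, 120 without shScr libraries 1 and 3 and 0 to 900 with each library left out in turn (0 without shFabp7 library 2 or 3, 900 without shScr library 2). List genes called were 5 with DESeq2, 1 at a threshold of 0.1 and 0 to 5 with each library left out (5 without shScr library 2).

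The replicate block gave 629 genes called, 4 of them list genes and 0 of them among the 10. With the block the SE was 0.14 against 0.35 for Fabp7 and 0.10 against 0.30 for Lpl, but 0.10 against 0.09 for Scarb1. Same-numbered libraries correlated at 0.08, 0.15 and 0.06 in their deviations from the group means, and differently numbered ones at -0.18 to 0.10. These values cannot show whether the same numbers mark pairs. The labels name no pairs, so the main fit used none.

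With the regional score, Abcg1 became 0.067, Lpl 0.25, Lrp8 -0.027 and Cd36 0.45, and without shScr libraries 1 and 3 they became 0.0033, 0.30, -0.055 and 0.33. With each library left out in turn, Abcg1 ranged from -0.12 to 0.046, Lpl from -0.45 to 0.035 and Cd36 from -0.56 to 0.067. Cd36 had 30 to 68 reads a library (SE 0.31) and Lpl 237 to 515 (SE 0.30), while Scarb1 had 404 to 549 (SE 0.09). What depth adds to these SE values was not tested.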
